A study of Mus musculus with 2 samples.

Results

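The tetraspanins are a family of small membrane proteins that cross the membrane several times and carry a folded extracellular loop. They gather integrins, immunoglobulin-type proteins and proteases into membrane clusters, and in macrophages they are known for roles in adhesion, cell fusion, antigen presentation and the sorting of late endosomes and small vesicles. PIKfyve is a kinase of the late endosomal membrane, where it phosphorylates a phosphoinositide to give phosphatidylinositol 3,5-bisphosphate. That is also the compartment in which the tetraspanin CD63 resides. The members were every gene with a symbol of Tspan and a number, together with Cd9, Cd37, Cd53, Cd63, Cd81, Cd82, Cd151, Upk1a, Upk1b, Prph2 and Rom1. They were 30 of the 22180 genes that the array table names singly, represented by 31 rows (probe sets).

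Alveolar macrophages, which live on the air side of the lung, came from adult C57BL6 mice kept in SPF condition. There was 1 array labelled PIKfyve KO, from mice described as PIKfyve f_f_lysm_cre (floxed alleles with a Cre recombinase expressed from the lysozyme M locus of myeloid cells), and 1 array labelled wild type, described as PIKfyve f_f, from littermates. Lungs were digested with collagenase, and DAPI-Siglec-F+CD11c+ cells were sorted. RNA was amplified from 10 ng, and the number of mice behind each array is not stated. With 1 array per genotype no difference could be tested, and values below have no replicate error. Values are RMA values on the log2 scale, differences are the array labelled knockout minus the array labelled wild type, and probe sets of different genes cannot be ranked against each other by level.

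Pikfyve itself read 5.95 in the array labelled knockout and 5.68 in the array labelled wild type. The position of that row's probes relative to the floxed part was not used here. It is therefore no check of the genotypes, and the arrays are named by their labels throughout. The label of the cell type was checked with markers: all 9 measured alveolar macrophage genes, among them Siglecf, Itgax, Pparg and Marco, lay above background on both arrays, with 6 higher and 3 lower in the array labelled knockout. Past 1.5-fold among them were Fabp4 (1.54-fold higher), Siglecf (1.66-fold lower), whose product was used in the sort, and Krt79 (1.97-fold lower). Background was the 95th percentile of 1428 olfactory, vomeronasal and taste receptor genes, 5.31 in the array labelled knockout and 5.37 in the array labelled wild type. Markers of other cells were above background as well. Of 7 neutrophil markers 7 were above background on both arrays and 7 read higher in the array labelled knockout (summed linear signal 9406 in the array labelled knockout, 6770 in the array labelled wild type). Of these 7, 5 were at least 1.5-fold higher (71.4%, beside 4.45% of all genes past the filter given below) and 0 lower by that size. The largest difference was that of Camp, 2.12-fold higher. Of 6 measured T and NK cell markers 5 were above background on both arrays and 5 of 6 read higher (994 and 633, in the same order). Of these 6, 2 were at least 1.5-fold higher (33.3%, beside the same 4.45%) and 0 lower by that size, with Gzma the largest at 2.21-fold. Of 4 measured platelet and red cell markers, all of them platelet genes, 3 read higher (488 and 311). Past 1.5-fold higher were 2 of the 4 (50%, beside the same 4.45%), with Ppbp the largest at 2.01-fold. The 1 that read lower, Itga2b, was at least 1.30-fold lower. The sums for the other lists were 9603 and 9119 for 12 epithelial markers (with Epcam 3.98-fold lower and Sftpc 1.72-fold higher in the array labelled knockout), 665 and 729 for 5 monocyte and interstitial macrophage markers, 527 and 418 for 5 dendritic cell markers, 369 and 370 for 4 B cell markers, 340 and 339 for 7 fibroblast and smooth muscle markers, 172 and 123 for 7 eosinophil and mast cell markers, and 159 and 180 for 6 endothelial markers. A sum of linear signal is carried by the brightest rows of its list. For epithelium these were Scgb1a1 (12.39 in the array labelled knockout, 12.26 in the array labelled wild type) and Krt19 (11.44 and 11.45). For neutrophils they were S100a8 and S100a9. Of the endothelial markers 5 of 6, and of the eosinophil and mast cell markers 5 of 7, were at background on both arrays. In sorted bulk RNA, fewer cells of a type and less RNA per cell cannot be told apart.

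Across the family, 3 genes were at least 1.5-fold higher in the array labelled knockout: Cd63, the late endosomal tetraspanin, was 2.42-fold higher, Tspan4, which is known for building migrasomes at the rear of moving cells, was 2.04-fold higher, and Tspan32, a tetraspanin of blood cells, was 1.83-fold higher. No tetraspanin was 1.5-fold lower with the rows of a gene averaged. Cd9 read lower as an average of its rows, but its brighter row differed by 0.03 and its dimmer row by -1.11. Of the 30 genes, 21 passed the filter on low values (a mean of both arrays at or above 5.13, the median of all rows), and 15 of these 21 read higher and 6 lower in the array labelled knockout. The count of 3 genes at least 1.5-fold higher is 14.3% of the 21, beside 4.45% of the 12516 genes that passed the same filter, and the count of 2 at least 2-fold higher stands beside 0.927%. The count of 0 genes at least 1.5-fold lower stands beside 2.66%. The median difference was 0.22 over the 21 tetraspanins and 0.00 over all genes, of which 48.9% read higher. These sets were not matched for level. Among the 6297 genes with a mean at or above the 75th percentile of rows, the median was 0.05, and over the 15 tetraspanins among them 0.29.

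**Figure D1:**
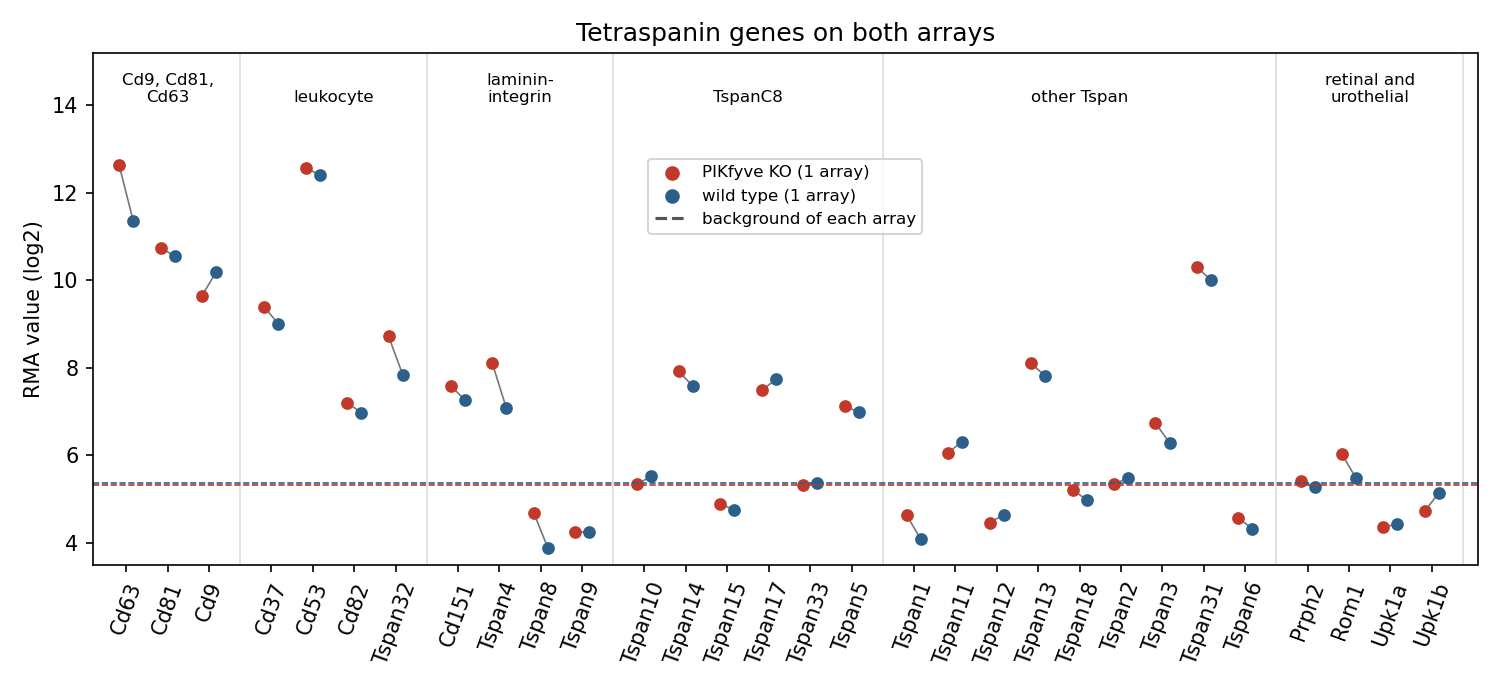
RMA values (log2, vertical axis) of all 30 tetraspanin genes, grouped by role, with the array labelled PIKfyve KO at the left and the array labelled wild type at the right of each pair and a dashed line at each array's background. Cd63, Tspan4 and Tspan32 slope down towards the wild type point, and 9 genes lie below both background lines.

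Differences between genes were read against their scatter at a like level. The local spread, the median absolute deviation of differences within 20 bins of mean level, scaled to match a standard deviation, ran from 0.20 to 0.33 and holds noise as well as real differences. Of the 21 tetraspanins 12 differed by less than 1 local spread (57.1%, beside 65.4% of all genes), and 4 by more than 2 (19.0%, beside 8.38%). Those 4 were Cd63, Tspan4, Tspan32 and Rom1. Differences were counted from 0 and not from the median of the bin. Counted so, Cd9, at -0.54, stood at -1.82 local spreads, while the median of its bin was 0.15.

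**Figure D2:**
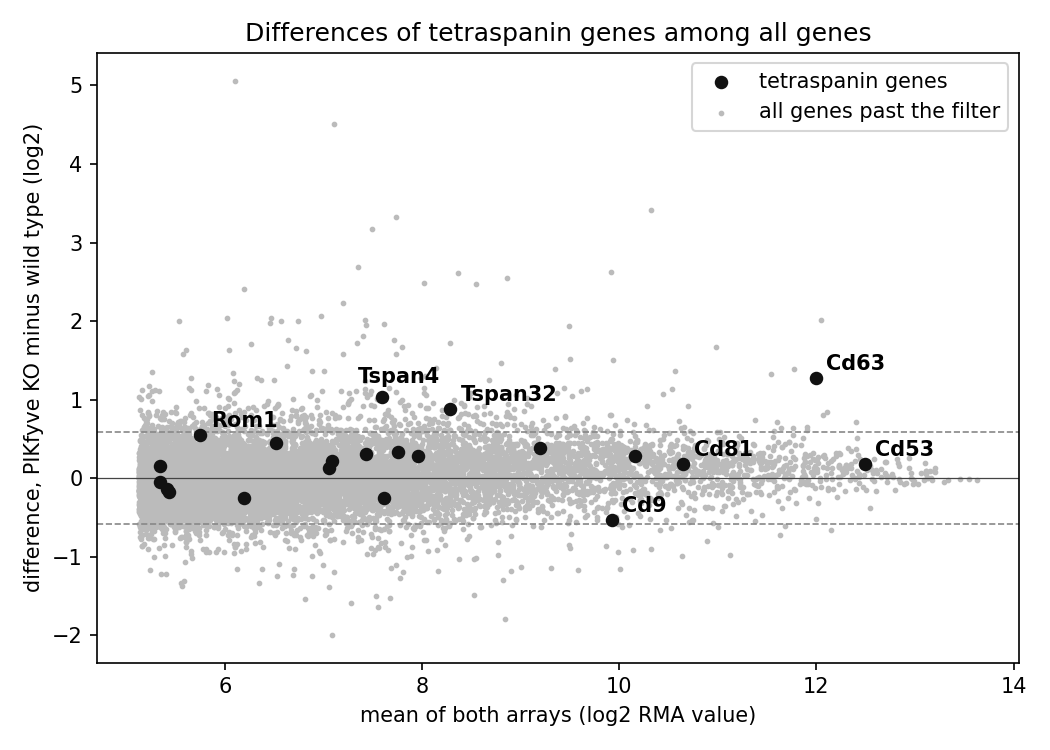
Difference between the arrays (PIKfyve KO minus wild type, log2, vertical axis) against the mean of both arrays (log2, horizontal axis) for the 21 tetraspanin genes that passed the filter (black) and all 12516 genes that passed it (grey), with dashed lines at 1.5-fold. Cd63, at 1.28, lies well above the 1.5-fold line, while the median difference of genes at its level was 0.12.

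CD63 is a tetraspanin of lysosomal membranes and a common marker of small extracellular vesicles. Its row read 12.63 in the array labelled knockout and 11.36 in the array labelled wild type. The difference of 1.28 was 6.29 times the local spread of 0.20 and ranked 56 from the top among the 12516 genes. The listed genes of other late endosomal membrane proteins, Lamp1, Lamp2 and Cd68, differed less, and no wider set of such genes was read here. Lamp1, a lysosomal membrane glycoprotein, read 10.89 in the array labelled knockout and 10.81 in the array labelled wild type, a difference of 0.08. Lamp2 read 10.74 and 10.55 in the same order, and Cd68, the macrophage homologue of the LAMP proteins, 12.91 and 12.76. Whether Cd63 differs from these genes could not be tested with 1 array per genotype.

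Genes that sort CD63 or load it into vesicles were mixed in direction. Of the 18 listed genes 16 passed the filter, with a median of 0.05, 9 higher and 7 lower. Of these 16, 1 was at least 1.5-fold higher (6.25%, beside 4.45% of all genes) and 0 lower by that size (beside 2.66%). The gene past 1.5-fold was Rab27a, a GTPase of vesicle docking. It read 6.10 in the array labelled knockout and 5.43 in the array labelled wild type, close to the background of 5.37 there. Sdcbp, which encodes syntenin, the adaptor that links CD63 and syndecans to vesicle budding, differed by 0.45. Pdcd6ip, which encodes its partner ALIX, differed by -0.40. Ap3s1, a subunit of the AP-3 coat that carries CD63 towards lysosomes, differed by 0.37, while the AP-3 subunit genes Ap3b1 and Ap3d1 differed by -0.31 and -0.23.

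Cd81, a widely made tetraspanin that binds EWI proteins, read 10.74 in the array labelled knockout and 10.56 in the array labelled wild type. Its difference of 0.18 lay within the local spread of 0.20.

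Cd9, a tetraspanin of cell fusion and adhesion that marks many macrophages, is the only member with more than 1 row, and its rows disagreed. The brighter row read 13.36 in the array labelled knockout and 13.33 in the array labelled wild type, a difference of 0.03. The dimmer row read 5.95 and 7.06 in the same order, a difference of -1.11, or 2.16-fold lower. The average, 9.65 against 10.19, is therefore set by the dimmer row, and the difference of -0.54 became 0.03 when the brighter row alone stood for the gene. A gap between rows as wide as that of Cd9, 1.15, occurred in 9 of the 742 genes with more than 1 row that passed the filter (1.21%), where the median gap was 0.20. The rows' mean levels lay 6.84 apart, beside a median of 1.37 over those genes.

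The order of the row identifiers was read for the member rows. Over 29 member rows of genes whose strand is given in RefSeq, the 10 named rows on either side mostly belonged to genes of the same strand in 28. The exception was the dimmer Cd9 row: Cd9 lies on the minus strand, and of 16 flanking genes with a strand 15 lie on the plus strand. The brighter row had 13 of 13 on the minus strand. The probes' own positions were not used here, so what the dimmer row measures was not tested.

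**Figure D3:**
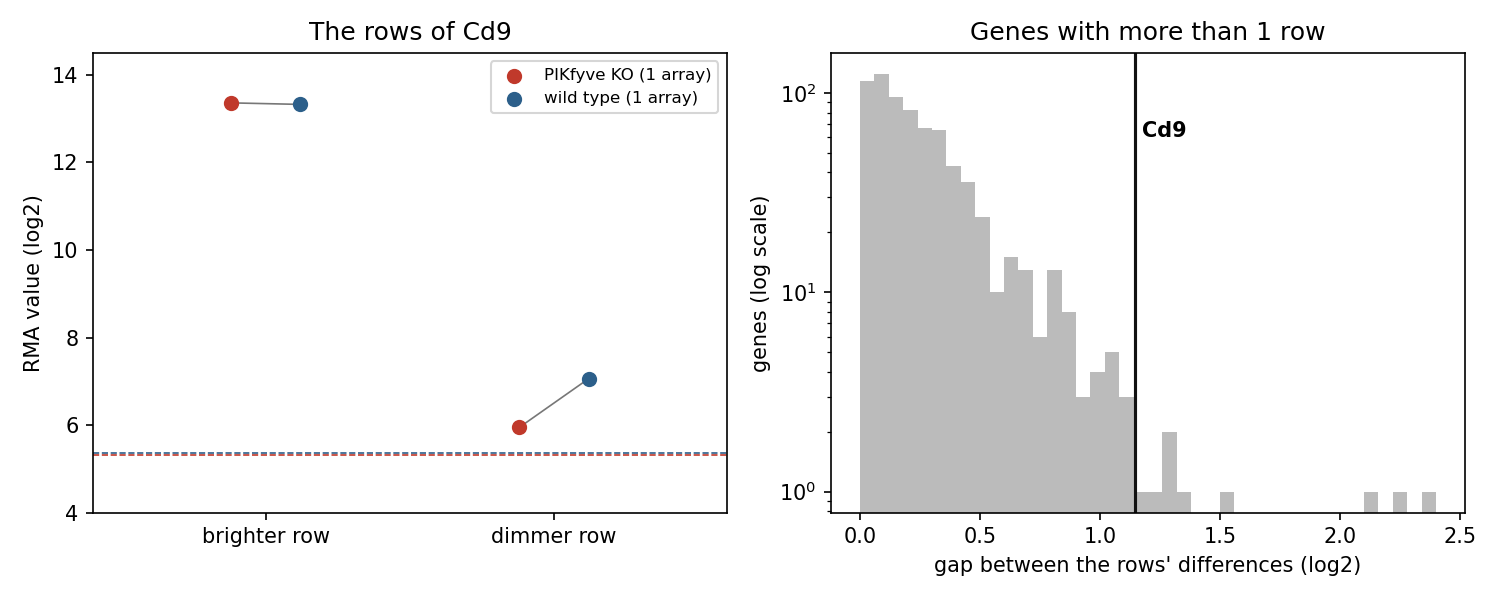
Left, RMA values (log2) of the brighter and the dimmer Cd9 row, with the array labelled PIKfyve KO left of the array labelled wild type and dashed lines at each array's background. Right, the number of genes (log scale) by the gap between their rows' differences (log2) over 742 genes with more than 1 row, with Cd9 marked at 1.15.

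Genes of surface partners of CD9, CD81 and other tetraspanins were read as well. Of 11 listed genes (EWI and other immunoglobulin-type or surface partners) 9 passed the filter, with a median of -0.03. Of these 9, 3 read higher and 6 lower, where 49.6% of all genes read lower. As read, 0 were at least 1.5-fold higher and 1, Hbegf, at least 1.5-fold lower, beside 4.45% and 2.66% of all genes. Hbegf, the growth factor precursor that CD9 binds, read 5.05 in the array labelled knockout, below background, and 5.75 in the array labelled wild type, which is at least 1.35-fold lower. Igsf8, which encodes EWI-2, read 5.21, also below background, and 5.65 in the same order, at least 1.27-fold lower, and Ptgfrn, which encodes EWI-F, differed by -0.30. Cd36, a scavenger receptor found with CD9 in macrophages, differed by 0.22.

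The tetraspanins of white blood cells all read higher in the array labelled knockout: 4 of 4, with a median of 0.31, where 48.9% of all genes read higher. Only Tspan32 was past 1.5-fold (25% of the 4, beside 4.45% of all genes). The median difference of genes at a like level was itself above 0: 0.12 for Cd37 and for Cd53, 0.07 for Tspan32 and 0.03 for Cd82. Tspan32, also known as Tssc6, restrains proliferation of T cells in mice and is made across blood lineages. It read 8.72 in the array labelled knockout and 7.85 in the array labelled wild type, a difference of 0.87, or 2.64 times the local spread of 0.33. Cd37, which is found in B cells and myeloid cells and binds the fungal receptor dectin-1, read 9.394 and 9.004 in the same order, a difference of 0.39 or 1.24 local spreads. The gene of dectin-1, Clec7a, differed by -0.02. Cd53, a tetraspanin of nearly all white blood cells, read 12.58 in the array labelled knockout and 12.40 in the array labelled wild type, and Cd82, known as a suppressor of metastasis, read 7.20 and 6.98. The differences of Cd53 and Cd82, 0.18 and 0.22, lay within their local spreads. All 7 neutrophil markers, 5 of 6 T and NK cell markers and 3 of 4 platelet markers read higher in the same array, as given above. The part of such cells in the value of Tspan32, or of any other tetraspanin, Cd63 and Tspan4 included, was not tested.

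Tetraspanins that hold laminin-binding integrins came next. Tspan4 read 8.11 in the array labelled knockout and 7.08 in the array labelled wild type, a difference of 1.03, or 3.31 times the local spread of 0.31, and ranked 106 from the top. Cd151, which binds the laminin-binding integrins directly, read 7.59 and 7.27 in the same order, a difference of 0.31. In the RefSeq gene table Cd151 and Tspan4 are separated by 1 protein-coding gene, Polr2l, which read 6.43 in the array labelled knockout and 6.86 in the array labelled wild type. Tspan32 and Cd81 have no protein-coding gene between them in that table, and their differences were 0.87 and 0.18. Tspan8, a tetraspanin of epithelium, and Tspan9, which is known from platelets, were below background on both arrays. Tspan8 read 4.69 and 3.89 there, and no fold is given for it, while Tspan9 held the same value, 4.25, on both arrays.

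No integrin gene that passed the filter was past 1.5-fold, beside 4.45% of all genes higher and 2.66% lower by that size. Of 12 listed, 10 passed the filter, with a median of -0.10, 4 higher and 6 lower. Itga7, a laminin-binding subunit, read 5.70 in the array labelled knockout and 5.32 in the array labelled wild type. The wild type value is below background, so the gene was at least 1.26-fold higher. Itgax, whose product CD11c was used in the sort, differed by 0.36. Itgal, a subunit of LFA-1, differed by -0.32 and Itga5, of the fibronectin receptor, by -0.31. Itgb1, the shared chain of the laminin-binding integrins, read 8.88 and 8.97.

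The TspanC8 tetraspanins bind the membrane protease ADAM10 and steer it to the cell surface. Their median was -0.05 over the 5 of 6 that passed the filter, 2 higher and 3 lower. Tspan14 read 7.92 in the array labelled knockout and 7.59 in the array labelled wild type, a difference of 0.33 where the local spread was 0.32. Tspan5 read 7.12 and 6.99 in the same order and Tspan17 read 7.49 and 7.74, both within their local spreads. Tspan10 (5.34 and 5.52) lay just above background on both arrays, Tspan33 (5.32 and 5.37) just above it in the array labelled knockout and just below it in the array labelled wild type, and Tspan15 (4.89 and 4.75) below it on both arrays. Adam10 itself read 7.59 in the array labelled knockout and 7.57 in the array labelled wild type. Of 13 genes of ADAM10, its relative ADAM17 and proteins they shed, 12 passed the filter, with a median of -0.26. Of these 12, 3 read higher, 8 lower and 1 held the same value on both arrays. None was past 1.5-fold, beside 4.45% of all genes higher and 2.66% lower by that size. Cxcl16, a membrane-bound chemokine, differed by 0.46, Axl, a receptor for dying cells, by -0.40, App, the amyloid precursor, by -0.35, and Adam17 by -0.33.

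Among the other Tspan genes 5 of 9 passed the filter. Tspan3, which is widely made, read 6.74 in the array labelled knockout and 6.29 in the array labelled wild type, a difference of 0.45 or 1.69 local spreads. Tspan31, amplified in human sarcomas, read 10.30 and 10.01 in the same order, and Tspan13 read 8.10 and 7.82. Their differences, both 0.29, were within their local spreads. Tspan11 (6.06 and 6.32) and Tspan2 (5.34 and 5.48), a tetraspanin of oligodendrocytes, read lower by less than their local spreads. Tspan1, Tspan6, Tspan12 and Tspan18 were below background on both arrays. Tspan12 is a coreceptor of Norrin with Fzd4 in retinal vessels. Of its partner genes 2 of 4 passed the filter, Fzd4 at 0.10 and Lrp6 at -0.05.

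The retinal and urothelial tetraspanins are made mainly outside blood cells. Rom1, a protein of photoreceptor discs, read 6.02 in the array labelled knockout and 5.48 in the array labelled wild type, a difference of 0.55 or 2.05 local spreads, above background on both arrays though close to it in the array labelled wild type. It was short of 1.5-fold as deposited and past it, at up to 1.53-fold, under 3 ways of rescaling the arrays, and 1.27-fold higher with an offset of 32 on the linear scale. Prph2, its partner in the disc rim, read 5.42 and, below background, 5.27. The uroplakin genes Upk1a and Upk1b were below background on both arrays. Over the 9 members that did not pass the filter, values ran from 4.25 to 5.22 in the array labelled knockout and from 3.89 to 5.15 in the array labelled wild type. Just outside the filter stood Tspan18, at 5.22 and 4.98, and just inside it Tspan33 and Prph2.

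Other small membrane proteins that cross the membrane several times, which share the topology and not the ancestry of tetraspanins, were listed for comparison. Of 13 listed 9 passed the filter, with a median of 0.49, 8 higher, 0 lower and 1 with the same value on both arrays, and 3 at least 1.5-fold higher as read, beside the same 4.45% of all genes. Of those 3, Pmp22 is under 1.5-fold when measured from background. Tmem176a, an ion channel-like protein of antigen-presenting cells, read 8.28 in the array labelled knockout and 7.19 in the array labelled wild type, a difference of 1.09, and its relative Tmem176b differed by 0.72. Pmp22, a myelin protein, read 5.88 and, below background, 5.17 in the same order, at least 1.42-fold higher. Tm4sf1 was at least 1.13-fold higher by the same measure. That median is set beside 0.22 for the tetraspanins, and the difference between the lists was not tested.

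**Figure D4:**
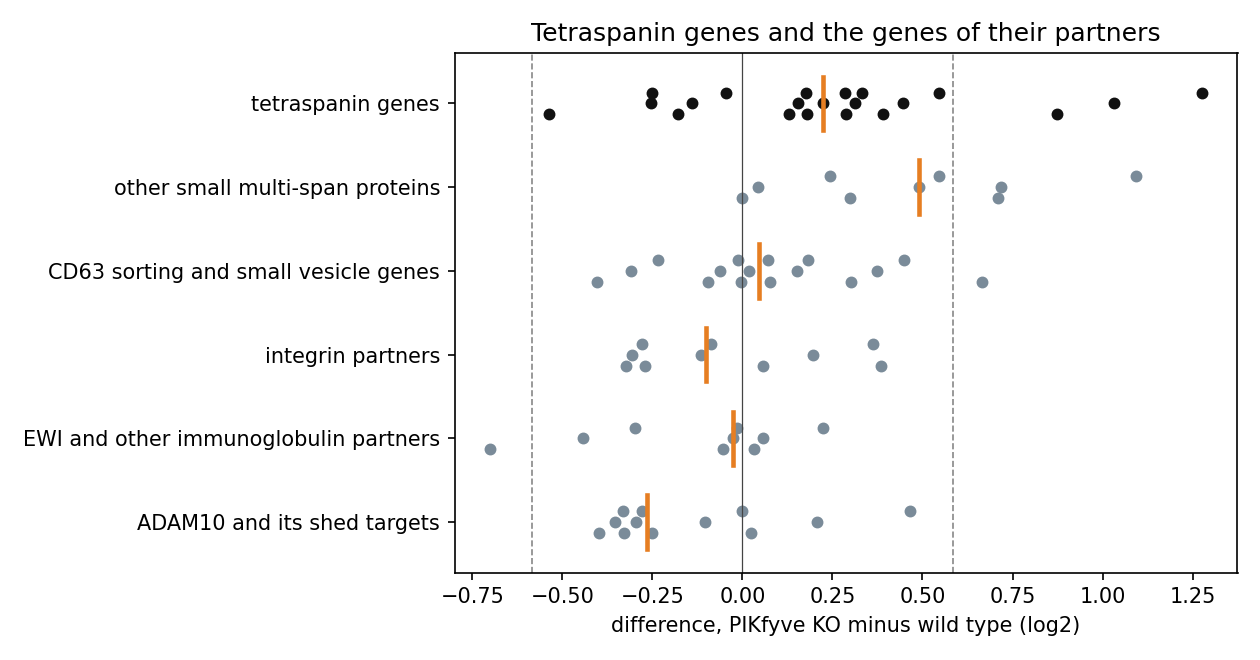
Differences between the arrays (PIKfyve KO minus wild type, log2, horizontal axis) of the genes that passed the filter, as points, for the tetraspanins (black) and 5 related lists (grey), with an orange bar at each median and dashed lines at 1.5-fold. The medians run from -0.26 for ADAM10 and its targets to 0.49 for the other small multi-span proteins.

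Promoter sequence of the members was searched for simple motifs. It is shown for the members that were past 1.5-fold and for Cd37. Cd37 was 1.31-fold higher and was the single member with the longer E-box described below. RefSeq (GRCm38.p6) gave 38 promoter windows, 250 bases before to 50 after a start, for 28 of the 30 members. The motifs searched on both strands were the E-box CACGTG, its longer form TCACGTG that TFEB and TFE3, the regulators of lysosomal genes, can bind, the AP-1 site TGAGTCA, the GC box GGGCGG and the core GAGGAA of the macrophage factor PU.1. Every TCACGTG also counts as an E-box. The 250 bases before the start are given on the gene's strand, with any E-box, AP-1 or PU.1 match in capitals, for Cd63 at chr10:128909095-128909344 (plus strand), Tspan32 at chr7:143004796-143005045 (plus strand), the outer start of Tspan4 at chr7:141474986-141475235 (plus strand) and Cd37 at chr7:45238840-45239089 (minus strand).

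Cd63: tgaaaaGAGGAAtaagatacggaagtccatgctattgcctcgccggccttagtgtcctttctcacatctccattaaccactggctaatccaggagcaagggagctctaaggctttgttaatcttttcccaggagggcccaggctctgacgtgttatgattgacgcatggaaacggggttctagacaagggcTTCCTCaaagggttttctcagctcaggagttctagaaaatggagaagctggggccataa
Tspan32: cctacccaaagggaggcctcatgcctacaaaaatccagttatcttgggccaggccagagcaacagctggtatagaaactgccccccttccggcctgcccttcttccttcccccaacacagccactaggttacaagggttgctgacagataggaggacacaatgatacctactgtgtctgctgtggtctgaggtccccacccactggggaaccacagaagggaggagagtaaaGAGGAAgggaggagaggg
Tspan4: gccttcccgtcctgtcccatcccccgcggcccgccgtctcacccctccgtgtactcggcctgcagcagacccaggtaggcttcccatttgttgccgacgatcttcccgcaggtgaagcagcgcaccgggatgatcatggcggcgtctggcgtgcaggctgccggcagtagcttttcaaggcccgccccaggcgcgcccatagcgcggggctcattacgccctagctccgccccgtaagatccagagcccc
Cd37: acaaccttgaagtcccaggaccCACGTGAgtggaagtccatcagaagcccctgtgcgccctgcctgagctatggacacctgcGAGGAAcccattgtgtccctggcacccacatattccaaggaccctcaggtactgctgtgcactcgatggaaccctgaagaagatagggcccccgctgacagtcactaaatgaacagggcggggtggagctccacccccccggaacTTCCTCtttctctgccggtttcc

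The Cd63 window holds 2 PU.1 cores, at -244 and -59 from the start, and no match to the other motifs, TCACGTG included. The Tspan32 window holds 1 PU.1 core, at -18, and the outer Tspan4 window 3 GC boxes. The inner start of Tspan4 has an AP-1 site at 39 bases into the transcript and an E-box at -51, the E-box shown in capitals within 30 bases at chr7:141476317-141476346 (plus strand).

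Tspan4, inner start: cccccatggagcCACGTGcagagccacgag

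Cd37 was the single member with the longer E-box, at -228, read on the opposite strand as CACGTGA. Over the 38 member windows TCACGTG stood in 1 (2.63%), against 3.77% of all 32851 windows, the E-box in 2 (5.26%, against 7.15%), the AP-1 site in 2, of Tspan4 and Tspan15 (5.26%, against 5.20%), the GC box in 16 (42.1%, against 35.7%) and the PU.1 core in 10 (26.3%, against 28.3%). These are matches of letters within the windows and say nothing of binding.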

How the data were processed

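The authors deposited 1 table of log2 values for 41345 rows on 2 Affymetrix arrays, made with RMA per the submitters' processing notes, which corrects background, brings arrays to a common distribution and summarises probes. The RMA version, the annotation and the build are not given in the sources at hand, and the base of the log was inferred from RMA and the range of values. RMA and array signal compress large folds. Rows with a single symbol in the platform's gene table (23521) were kept and rows of a gene averaged, giving 22180 genes. Genes passed the filter when their mean over the arrays was at least the median over rows. Folds are powers of 2 of the differences. Where 1 array was below background, the fold is "at least" and measured from that array's background. No test was possible. The members and lists were chosen with earlier results of these data known. Every member that passed the filter is named, partner lists by the genes with the largest differences, others being named after their values were seen, and marker lists by counts and sums of linear signal over measured genes. The code that counts folds was run on simulated data with known shifts, which checks the code alone and gives no null for the counts. The number of arrays limits the precision. Alternatives were median, quantile and loess (span 0.3) rescaling, an offset of 32, the brightest row, other filters, other thresholds and the mean. Python 3.11.15, pandas 2.3.3, numpy 2.4.6 and statsmodels 0.14.6 were used.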

Additional observations from a re-analysis of the deposited data

How the results depend on the processing

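The median difference of the tetraspanins was positive under every filter and scaling run, from 0.18 with an offset of 32 to 0.29 with median centring, and their mean was 0.25. Median centring moved the median of all genes to 0.07. The count of genes at least 1.5-fold higher was 3 as deposited and 4 under median, quantile and loess rescaling, which added Rom1, and 4 with no filter, which added Tspan8, a gene below background on both arrays. Keeping only the 19 genes above background on both arrays, an alternative chosen after seeing the data, left 3. The thresholds of 2-fold and of 3 local spreads each left 2, Cd63 and Tspan4. No gene was 1.5-fold lower under any of these settings. None of them used the dimmer Cd9 row alone, which read 2.16-fold lower. Across scalings, the offset and the brightest row, the fold of Cd63 ran from 2.32 to 2.54, of Tspan4 from 1.84 to 2.14 and of Tspan32 from 1.73 to 1.92. Over 105 values of single genes under these 5 settings, 4 changed sign: Cd9 with its brighter row (0.03), which leaves out the dimmer row by construction, and Tspan33 under the 3 rescalings (0.02). No paired analysis was possible because there was 1 array per genotype. Signal near background limits what can be read for Tspan2, Tspan10, Tspan33 and Prph2.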
